A study of Mus musculus with 15 samples.

Results

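Exc_5 is 1 of 26 excitatory neuron clusters that the authors assigned in the mouse prefrontal cortex (PFC), and its members were all cells that the deposited cell table lists under that cluster. They numbered 632 of 35360 retained cells, 536 of 24822 at P60 and 96 of 10538 at P21, or 3.71% and 1.62% of the cells in excitatory clusters at the 2 ages. The study also has a coarser set of excitatory clusters, on which it ran its age and cocaine comparisons. Exc-5 of that set, which the study assigns to layer 6, is a different cluster from Exc_5 here. The mice were C57BL/6N males, either at P21 or adults called P60 here (8 to 10 weeks in the sample labels). By the study, the adults had catheters implanted at P60 and also underwent food restriction and food training. Self-administration followed, so their tissue was taken later than P60. The P60 mice had self-administered saline or cocaine intravenously, and their PFC was taken at the end of a 15-day maintenance phase (saline_maint, cocaine_maint), or after 48 h (saline_48h, cocaine_48h) or 15 days of withdrawal (saline_15d, cocaine_15d). Each of these 6 groups has 2 libraries, each library holds tissue pooled from 2 mice, and P21 has 3 libraries of untreated mice. In the labels the tissue entry reads nucleus accumbens, while the titles and the study give the PFC. Every mRNA molecule carried a unique molecular identifier (UMI), so UMIs count molecules, and levels are given as CPM, the UMIs of a gene summed over the Exc_5 cells of a library and scaled to the same total in every library.

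Excitatory neurons of the upper cortical layers are glutamatergic cells that project mainly within the cortex, to other areas of the same hemisphere and across the corpus callosum. Cux2, a homeodomain transcription factor, and Calb1, the calcium-buffering protein calbindin, are widely used to mark them in layer 2/3. In adolescence such neurons still refine their axons, spines and synapses, and the PFC is among the cortical areas where this continues longest.

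Both marker genes fixed for Exc_5 were present in it. Cux2 (chromosome 5, 122308396 to 122500111, minus strand, NCBIM37) was at 102 ± 27.7 CPM over the P60 libraries (SD, n = 12), between 61.8 and 138 CPM. That level was rank 7 of 26 clusters, below Exc_6 at 238 CPM and Exc_3 at 224 CPM and within 1 SD of its neighbours Exc_17 and Exc_8, against a median of 19.9 CPM in the other clusters. Calb1 (chromosome 4, 15808411 to 15835211, plus strand) was at 321 ± 87.1 CPM (n = 12), from 216 to 502 CPM, and ranked behind only Exc_4 at 327 CPM. Exc_1, Exc_3, Exc_9 and Exc_2 followed within 1 SD of it, and the other clusters had a median of 17.3 CPM. At least 1 UMI of Cux2 was found in 59.5% of the 536 P60 cells (exact 95% binomial interval 55.2% to 63.7%) and of Calb1 in 88.1% (85.0% to 90.7%), and 53.2% held both. In microglia, which should lack these genes, the shares were 2.07% and 1.52%, at a median of 3213.5 UMIs per cell against 11621.5 in Exc_5. After thinning every cell to 2000 UMIs the shares in Exc_5 were 17.9% and 41.4%, and 1.10% and 0.83% in microglia. Intervals cover counting error only.

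**Figure D1:**
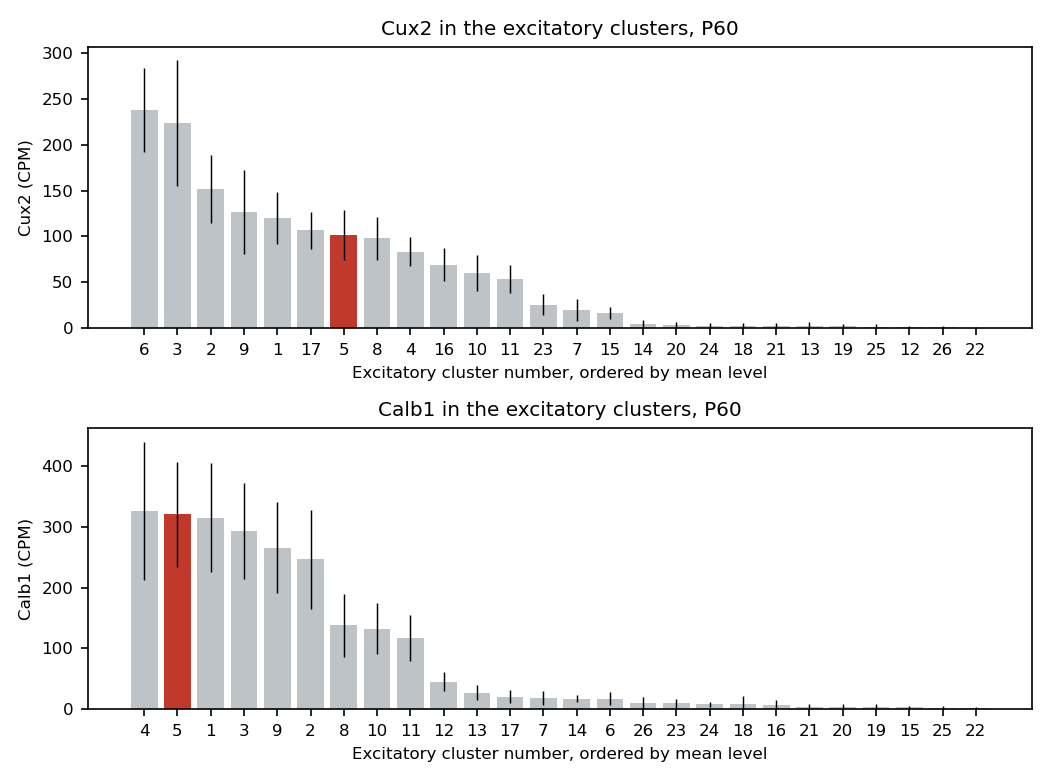
Mean level of Cux2 (top) and Calb1 (bottom) in CPM at P60 in each excitatory cluster, with the SD over libraries as error bars and Exc_5 in red. Exc_5 sits at rank 7 for Cux2 at 102 CPM and at rank 2 for Calb1 at 321 CPM, beside clusters 4, 1, 3, 9 and 2.

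The layer markers placed Exc_5 with the upper layers. Summed over 18 layer 2/3 markers it reached 2711 CPM, rank 2 of the clusters, and over 8 markers of layer 4 and superficial layer 5 it reached 19.2 CPM, rank 26. Its layer 5 markers summed to 481 CPM (rank 20) and its layer 6 markers to 96.3 CPM (rank 19). The sums weigh abundant genes most. In the layer 2/3 list Lmo4 alone had group means of 980 to 1158 CPM at maintenance and 48 h. In the layer 5 list Lypd1 was at 137 CPM, 10.2 times the median of the other clusters. Inhibitory neuron markers summed to 22.7 CPM, microglial markers to 17.9 CPM and oligodendrocyte precursor markers to 2.73 CPM. The medians of the other excitatory clusters were 21.4, 18.7 and 1.93 CPM, so the first and last lists lay above them. Astrocyte markers summed to 227 CPM, oligodendrocyte markers to 96.2 CPM and endothelial markers to 618 CPM, each below the median of the other excitatory clusters (450, 113 and 657 CPM). By whole expression profile in saline P60 libraries, Exc_5 was most like Exc_3 (Pearson's r = 0.979 across 9456 genes), then Exc_4 (0.978) and Exc_2 (0.976). These values describe clusters drawn from the same libraries and genes, so no test applies to them.

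Among the genes highest in Exc_5 relative to the median of the 25 other clusters at P60, Lpl, the secreted lipoprotein lipase, led at 93.1 ± 25.3 CPM (n = 12) against a median of 2.20 CPM, a ratio of 42.3, and was higher only in Exc_2 at 116 CPM. In the most alike clusters Lpl was at 31.9 CPM (Exc_3) and 41.4 CPM (Exc_4). Wfs1, an endoplasmic reticulum membrane protein, was at 253 ± 29.8 CPM, 12.2 times the median, with 165 CPM in Exc_3 and 147 CPM in Exc_4. S100a6, a calcium-binding protein, was at 431 ± 136 CPM, against 184 CPM in Exc_3, 92.7 CPM in Exc_4, 794 CPM in Exc_2 and 1025 CPM in Exc_1. Lamp5, listed as 6330527O06Rik and known from upper-layer neurons, was at 476 ± 84.3 CPM, 7.59 times the median. The others by this rule were Calb1, Ddit4l, Myh7, Pvrl3 (the adhesion protein nectin-3), Lypd1, Fam84a, Btbd3 and Trp53i11, at 5.10 to 18.5 times the median. At the low end, Pcp4, a calmodulin-binding protein, was at 83.7 ± 49.8 CPM against a median of 1060 CPM, and Satb1, a chromatin organiser, at 7.81 ± 4.07 CPM against 56.4 CPM. Tmem91, Myl4, Cnih3, Tox, Bok and Dkkl1 completed the 8 lowest, at 0.109 to 0.161 times the median.

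**Figure D2:**
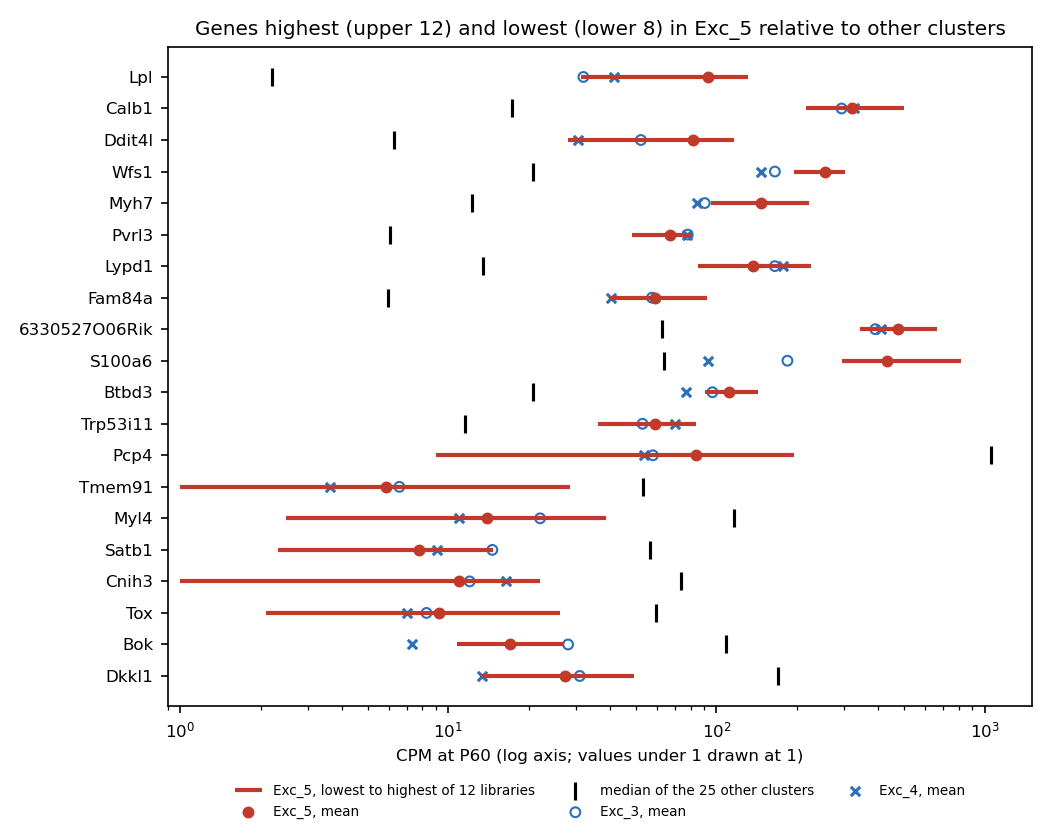
Level in CPM at P60 on a log axis of the 12 genes highest and the 8 lowest in Exc_5 relative to the median of the 25 other excitatory clusters (black ticks). Red dots are Exc_5 means and red lines run from the lowest to the highest of 12 libraries, while Exc_3 (open circles) and Exc_4 (crosses) mostly fall on or near the red lines, except for Wfs1, S100a6 and Myh7, where both lie below them.

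Per library, 20 to 90 Exc_5 cells gave 188203 to 899133 UMIs, and the median mitochondrial share was 2.43% to 3.57%. No cell barcode of Exc_5 occurred in a pair of libraries. P21 library 1 stood apart from the other P21 libraries: it differed from libraries 2 and 3 by a chi-square per gene of 6.66 and 5.65, where libraries 2 and 3 differed by 1.70 and pairs within P60 groups by 1.81 to 2.80. Genes with a GC content above 55.9% were 0.29 (log2) above those below 44.1% in P21 library 1, against -0.19 and -0.11 in libraries 2 and 3. Most counts of age calls are therefore also given without that library. Of the 96 P21 cells, 3 carry another class than excitatory in the cell table. The authors named P21 cells by their correlation with P60 clusters. Age and the preparation of the libraries cannot be told apart. Nor can age and the surgery, food restriction, food training and self-administration of the P60 mice. The methods list 4 P21 mice and pools of 2, which cannot fill 3 separate pools, so the P21 libraries may share mice. All tests with n = 3 at P21 therefore measure the spread between libraries, which may be technical.

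Exc_5 made up a smaller share of the excitatory cells at P21 than in the saline P60 libraries. The P21 libraries had shares of 1.85%, 1.36% and 1.52%, and the 6 saline libraries lay between 2.51% and 6.63% without overlap. The means were 1.58 ± 0.25% (n = 3) and 4.82 ± 1.69% (n = 6), a difference of 3.24 percentage points (two-sided exact permutation test, p = 0.0238 over 84 splits, of which the smallest possible p is 0.0119). The pair of saline libraries taken at 15 days, which with 1393 and 2552 excitatory cells were nearest in size to the P21 libraries (1549 to 2481), averaged 3.02%. The cocaine_15d libraries, also P60, were at 1.83% and 2.68%, the former below P21 library 1. The other cocaine libraries lay above the P21 range. With P21 libraries 2 and 3 summed as 1 sample the difference was 3.16 points and no longer passed (exact permutation p = 0.0714, smallest possible 0.0357). Since P21 cells were assigned by likeness to P60 clusters, fewer neurons of this kind and fewer that were recognised cannot be told apart.

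Between P21 and saline P60, many genes of axon growth and of the immediate early response were lower in the adult Exc_5 neurons, and single genes such as Ptgs1 and Ccnd1 were higher. Of 5951 genes tested with edgeR's quasi-likelihood test, 430 (7.23%) passed both thresholds used for every call here, 0.05 for the p adjusted by Benjamini-Hochberg and 1.5 for the fold, with 157 higher (2.64%) and 273 lower (4.59%) at P60. The groups did not overlap for 347 of the called genes, and the share without overlap among all genes tested was not counted. The median log2 change over all genes tested was 0.01. Without P21 library 1 there were 508 calls, 294 of them among the 430, and with at least 30 cells required per library there were 463, of which 195 were shared. That requirement left P21 library 1 and 5 of the saline libraries, so the spread came from saline libraries only and the lone P21 library was assumed to vary like them. The calls made in both of those settings, as well as with all libraries, comprised 45 higher and 71 lower genes.

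The list of axon growth and immature neuron genes had 21 of 26 members tested, of which 12 fell and 0 rose at P60, with a median log2 change of -0.76. Over all genes tested 4.59% fell and 2.64% rose. Marcksl1 and Cd24a passed the low-count filter only through their P21 levels, so this count and median rest partly on them. Without P21 library 1, 12 fell and 1 rose, and Cd24a, Dclk1, Marcks, Marcksl1, Ncam1 and Nnat were also called lower in libraries of at least 30 cells. Marcksl1, an actin-regulating substrate of protein kinase C, was at 319, 276 and 220 CPM in the P21 libraries and between 2.59 and 11.03 CPM (median 7.83) in the saline libraries. No library overlapped, and the change was -5.00 ± 0.25 (log2, SE; adjusted p = 2.23e-18). Cd24a, a surface glycoprotein of immature neurons, was at 55.0, 128 and 70.3 CPM at P21, from 59 UMIs, and had 0 UMIs in all 6 saline libraries. Against a floor of 3 UMIs over the saline group this is at least 74.7-fold lower (adjusted p = 9.23e-10). Nnat, a small membrane protein of developing brain, was at 212, 95.6 and 127 CPM at P21 and between 34.8 and 89.6 CPM in the saline libraries (log2 change -1.62 ± 0.26, adjusted p = 6.71e-05). Dclk1, a doublecortin-like kinase, was at 412, 356 and 525 CPM against 210 to 269 CPM (-0.81 ± 0.16, adjusted p = 0.000464). Growth-cone and tubulin genes also fell: Gap43 by 0.61, Stmn2 by 0.80 and Tubb2a by 0.77 on the log2 scale, and for these genes P21 library 1 was the lowest P21 library. Of the list of neurofilament and microtubule-associated genes, 2 of 9 tested rose. They were the neurofilament gene Nefm, by 0.89 ± 0.25 (adjusted p = 0.0207), and Mtap1a, which encodes a microtubule-associated protein, by 0.90 ± 0.17 (adjusted p = 0.000418). Without P21 library 1, 1 of that list rose, and in libraries of at least 30 cells 0 were called.

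**Figure D3:**
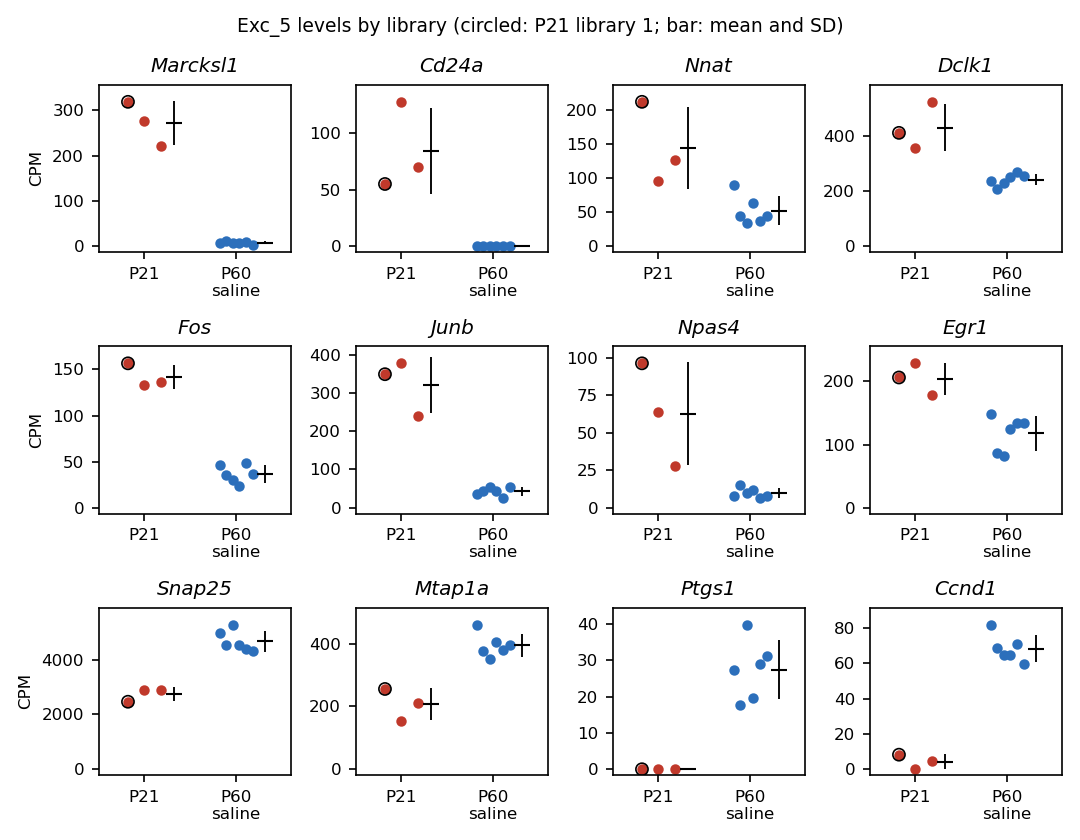
Level in CPM of 12 genes in Exc_5 in each P21 (red) and saline P60 (blue) library, with P21 library 1 circled and the mean and SD beside each group. The groups do not overlap for any gene shown. Marcksl1 is at 220 CPM or more in the P21 libraries and at 11.03 CPM or less in the saline P60 libraries, and Ptgs1 and Ccnd1 go the other way.

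Immediate early genes, which neurons transcribe within minutes of activity or stress, formed the other group that was lower at P60. Of 9 tested, 6 fell and 0 rose, with a median log2 change of -1.04, and 5 fell without P21 library 1 and 8 in libraries of at least 30 cells. Fos, Junb, Egr1 and Npas4 were among those called lower in both. Over all genes tested 4.59% fell and 2.64% rose. Npas4 passed the low-count filter only through its P21 levels, so the count of 6 and the median rest partly on that. Fos was at 157, 133 and 136 CPM at P21 and between 23.6 and 48.9 CPM (median 35.8) in saline libraries, a change of -1.92 ± 0.23 (adjusted p = 3.06e-07). Junb was at 349, 377 and 239 CPM against 24.5 to 54.6 CPM (-2.95 ± 0.21, adjusted p = 1.71e-13). Npas4, an activity-dependent transcription factor of neurons, was at 96.2, 63.8 and 28.1 CPM against 6.67 to 15.5 CPM (-2.73 ± 0.38, adjusted p = 5.1e-06). The P21 libraries lay above every saline library for these 3 genes and for Egr1 and Btg2, whereas for Nr4a1 they overlapped.

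The proximal promoters of these genes are shown because cyclic AMP response elements are a classic entry point of neuronal activity to them. RefSeq (GRCm38.p6) listed promoters for 5 of the 6 genes that fell, and the 250 bases before the start of 3 of these, Fos, Npas4 and Btg2, held TGACGT on either strand, a core that overlaps itself in the full palindromic element. Of 32536 promoter windows of the same length, 6.5% held it. Capitals mark the matches, which describe letters and not binding.
Fos (chr12:85473640-85473889, plus strand): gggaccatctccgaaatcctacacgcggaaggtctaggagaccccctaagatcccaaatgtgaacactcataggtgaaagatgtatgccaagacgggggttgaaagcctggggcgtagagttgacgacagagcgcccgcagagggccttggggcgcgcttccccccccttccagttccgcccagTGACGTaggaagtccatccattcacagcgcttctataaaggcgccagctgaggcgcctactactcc
Npas4 (chr19:4989972-4990221, minus strand): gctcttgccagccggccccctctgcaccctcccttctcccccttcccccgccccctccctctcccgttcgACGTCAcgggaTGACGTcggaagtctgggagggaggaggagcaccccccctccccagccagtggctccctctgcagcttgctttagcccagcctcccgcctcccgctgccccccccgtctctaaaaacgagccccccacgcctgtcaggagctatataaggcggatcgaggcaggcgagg
Btg2 (chr1:134079156-134079405, minus strand): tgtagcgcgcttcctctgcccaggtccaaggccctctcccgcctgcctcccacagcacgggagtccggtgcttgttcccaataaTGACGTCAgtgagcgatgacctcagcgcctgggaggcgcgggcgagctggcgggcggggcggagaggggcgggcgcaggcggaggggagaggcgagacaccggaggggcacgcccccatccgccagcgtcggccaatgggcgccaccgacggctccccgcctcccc

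The largest rises with age were in genes nearly silent at P21. Ptgs1, cyclooxygenase 1, had 0 UMIs in the 3 P21 libraries and 17.7 to 39.7 CPM in the saline libraries, at least 6.93-fold higher against a floor of 3 UMIs over the P21 group (adjusted p = 0.000234). Ass1, argininosuccinate synthase, had 1 UMI at P21 and 123 in saline libraries, a ratio of 32.4 with a 95% counting interval of 5.71 to 1290 (adjusted p = 1.46e-05). Ccnd1, cyclin D1, was at 8.24, 0 and 4.69 CPM at P21 and between 59.5 and 81.8 CPM in the saline libraries, with no overlap and a change of 3.65 ± 0.47 (adjusted p = 9.47e-07). Myh14, a nonmuscle myosin heavy chain, rose from 12.6 ± 6.79 to 111 ± 32.5 CPM (adjusted p = 1.88e-06). Abi3bp, Tbk1, Gpr83, Tnnt2, Dkkl1 and Trpc6 were the other large rises, with means of 0.92 to 5.17 CPM at P21 and 26.6 to 52.5 CPM in the saline libraries. Trpc6 was not called in libraries of at least 30 cells.

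The largest falls after Cd24a and Marcksl1 were in Gm10071, Junb, Npas4, Aldh1a3, 2310036O22Rik, March4, H2afx and Cox5a. Of these, Junb, 2310036O22Rik and H2afx were also among the 80 genes called at 15 days of withdrawal, described below. So were Rab3a, Calb1 and Yeats4 of the next paragraph. As a set, those 80 genes also differed between the saline_15d libraries, which share a treatment. Aldh1a3, a retinoic acid-synthesising enzyme, was at 62.1 ± 11.5 CPM (n = 3) at P21 and 11.4 ± 7.95 CPM (n = 6) at P60 (-2.50 ± 0.43, adjusted p = 0.000175). H2afx lost its call without P21 library 1, and March4 and Cox5a in libraries of at least 30 cells. Cox5a was at 1083, 606 and 600 CPM in the P21 libraries, and at 618 and 654 CPM in the cocaine_15d libraries, also P60. It was 1 of 4 nuclear oxidative phosphorylation genes that fell, of 76 tested, with 0 that rose and a median of 0.13. In libraries of at least 30 cells this list had 7 that rose and 1 that fell, and without P21 library 1 it had 1 and 2.

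Over all genes tested 7.23% were called (2.64% higher and 4.59% lower). Counts for the synaptic and channel gene lists are given beside that share, and a difference from it was not tested. Snap25, the presynaptic SNARE protein, rose from 2762 ± 258 to 4674 ± 376 CPM (0.77 ± 0.14, adjusted p = 0.000208), with P21 libraries at 2465, 2912 and 2910 CPM and saline libraries from 4320 to 5274 CPM. Of 28 synaptic vesicle genes tested, Snap25 rose while Rab3a and Syt13 fell (median 0.08), and without P21 library 1, 4 rose and 2 fell. Of 24 glutamate receptor and partner genes 1 fell, Nrgn, the calmodulin-binding postsynaptic neurogranin, by 1.02 (log2), and without P21 library 1, 3 rose and 2 fell. Of 9 GABA-A receptor subunits 0 were called with or without that library. Of 21 potassium channel genes Kcnf1 fell, and without P21 library 1, 1 rose and 0 fell. Of 16 neuropeptide and growth factor genes Chgb, a secretory granule protein, rose by 0.67, and Cck, the precursor of cholecystokinin, fell, from 6031, 2465 and 2123 CPM at P21 to a mean of 796 CPM (adjusted p = 0.0486). In the cocaine_15d libraries, also P60, Cck was at 3143 to 3912 CPM, above P21 libraries 2 and 3. Nrgn was at 1408 to 1706 CPM in cocaine_15d, against 2443, 1281 and 1172 CPM in the P21 libraries. Of 16 heat shock genes Hspa1a and Hspa5 rose and Dnajb5 fell. Of 23 synaptic adhesion and axon guidance genes Nlgn3 fell, of 11 cholesterol synthesis genes Sqle, and of 3 dopamine receptor and signalling genes Pde10a. Without P21 library 1, 1 neuropeptide or growth factor gene rose and 2 fell. In that setting 2 heat shock genes rose and 2 fell, and 1 adhesion or guidance gene rose and 2 fell. The cholesterol and dopamine lists then had 0 that rose and 1 that fell each. Of 3 layer 5 and 2 layer 6 markers tested 0 were called, and of 8 excitatory neuron markers Snap25 alone was. Without P21 library 1, 4 excitatory neuron markers rose and 1 layer 5 marker fell. Of 7 other genes that the study named from these libraries, Marcksl1, Nrgn, Cck and Rab3a fell, which is not independent evidence. Calb1 itself fell, from 596, 664 and 520 CPM at P21 to between 216 and 364 CPM (-1.01 ± 0.16, adjusted p = 3.32e-05), and Wfs1 rose by 0.64 with overlapping groups. Among epigenetic genes that the study named from these libraries, which are not independent evidence, Dnmt3a, a de novo DNA methyltransferase, fell by 1.20, as did Yeats4, Ube2d3 and Mbd3, while Prmt1 and Hspa1a rose. The groups of Mbd3 and Prmt1 overlapped, Mbd3 was not called without P21 library 1, and Dnmt3a, Ube2d3, Prmt1 and Hspa1a were not called in libraries of at least 30 cells. Of the 6 astrocyte markers 1 was called, Slc1a2, which fell by 1.03 from 367 to 178 CPM, and the 6 summed to 303 to 522 CPM at P21 and 159 to 299 CPM in saline libraries. Most of that sum was Slc1a2, while Aldoc was at 16.5 CPM at P21 and 35.7 CPM at P60 (adjusted p = 0.394) and Gfap was at 0 in both. Of the 6 oligodendrocyte markers Mbp, a myelin protein, fell by 1.07 without overlap (adjusted p = 0.0211), and the 6 summed to 108 to 159 CPM at P21 and 35.3 to 139 CPM in saline libraries. In P21 library 1 the microglial markers summed to 137 CPM and the endothelial markers to 937 CPM, above the saline ranges of 2.48 to 46.6 CPM and 483 to 744 CPM. Of that endothelial sum, 882 CPM came from the list member Bsg. Without that library 1 astrocyte and 1 oligodendrocyte marker were called lower. The part of other cell types in the age differences was not tested.

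The age difference of Exc_5 was set against that of its most alike cluster, Exc_3, by an interaction test in the same libraries. Of 6605 genes, 3 were called (0.0454%): Penk, Acat2 and Pcp4. Penk, the precursor of enkephalin peptides, was at 35.1 ± 7.61 CPM at P21 and 36.2 ± 31.8 CPM in saline libraries of Exc_5 (7.86 to 97.4 CPM), and at 33.9 ± 8.48 and 3.70 ± 3.22 CPM in Exc_3. The difference of the log2 changes was 2.80 ± 0.53 (adjusted p = 0.00173). Acat2, an enzyme of sterol precursor synthesis, differed by 1.83 ± 0.42 (adjusted p = 0.0282), and this call was lost without any 1 of the P21 libraries. Against Exc_4 in place of Exc_3, 28 genes were called.

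Against all other excitatory clusters summed, 93 of 11273 genes (0.825%) were called, 62 with a change toward P60 that was more positive in Exc_5 and 31 more negative. Without P21 library 1 the number was 157, and without P21 library 2 it was 41. Marcksl1 fell from 230 ± 8.09 to 33.6 ± 6.40 CPM in the other clusters and from 272 ± 49.4 to 7.79 ± 2.92 CPM in Exc_5, an interaction of -2.30 ± 0.28 (adjusted p = 2.5e-13). Npas4 went from 70.6 to 39.1 CPM in the other clusters, and its interaction was -1.94 ± 0.34 (adjusted p = 1.33e-05). Cd24a, with 0 UMIs in Exc_5 of the saline P60 libraries, kept 8.39 ± 2.94 CPM in the other clusters of those libraries (adjusted p = 2.82e-07). In the other direction, Nefm differed by 1.42 ± 0.25 (adjusted p = 9.42e-06; 0.0592 without P21 library 1) and Tmsb10, an actin-sequestering peptide, by 1.09 ± 0.10 (adjusted p = 1.04e-23). Ptgs1 was at 4.85 and 8.77 CPM in the other clusters against 0 and 27.4 CPM in Exc_5 (adjusted p = 0.00588), a call lost without P21 library 1 or 3. Against Exc_3 alone none of these 6 genes was called: the interaction was -1.01 ± 0.39 for Marcksl1 (adjusted p = 0.839) and 0.93 ± 0.57 for Npas4 (adjusted p = 0.954), and 0.51 ± 0.11 for Tmsb10 (adjusted p = 0.0259), under the fold threshold. These comparisons share libraries with the age comparison above, and the summed clusters also differ between ages in which clusters they hold.

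Cocaine and saline libraries were compared within each time point and over the 3 time points in 1 fit of all 12 P60 libraries, with 6961 genes tested. At maintenance 0 genes (0%) were called by edgeR, with 319 at an unadjusted p below 0.05, and DESeq2 also called 0, with 82 at that level. At 48 h 0 genes (0%) were called by edgeR, with 252 at an unadjusted p below 0.05, and by DESeq2 0, with 50. Without saline_maint replicate 2, 2 genes were called at maintenance.

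Over the 3 time points 4 genes were called (0.0575%), and Ddit4l was the gene among them whose groups did not overlap. Ddit4l (chromosome 3, 137284576 to 137291297, plus strand), an inhibitor of mTORC1 signalling, was at 81.5 CPM in Exc_5 over all P60 libraries against a median of 6.29 CPM in the other clusters, and ranked 7 of 26, below Exc_10, Exc_9, Exc_11, Exc_1, Exc_2 and Exc_8. In saline libraries it was at 113 and 106 CPM at maintenance, 96.8 and 100.2 CPM at 48 h, and 108 and 117 CPM at 15 days. In cocaine libraries it was at 66.7 and 36.7 CPM, 48.6 and 27.9 CPM, and 75.1 and 83.2 CPM at the same times. Every cocaine library therefore lay below every saline library, in all 6 against 6, from 309 UMIs in saline and 163 in cocaine libraries. Ddit4l was named by that rule, and the share of all genes tested with no such overlap was not counted. The mean was 107 ± 7.45 CPM against 56.4 ± 22.1 CPM, a change of -0.93 ± 0.17 (log2, SE; 1.90-fold, adjusted p = 0.00107). Taken alone, no time point passed: the changes were -0.98 at maintenance (adjusted p = 0.734), -1.33 at 48 h (0.161) and -0.47 at 15 days (0.835). It was called in 16 of the 17 alternatives in which it was tested, with adjusted p between 0.000284 and 0.156, the highest with DESeq2. With cells thinned to 2000 UMIs it fell under the low-count filter and was not tested, with 55 UMIs left in saline and 27 in cocaine libraries (3 to 19 a library), and 0 genes were called. At P21 Ddit4l was at 46.7, 53.1 and 42.2 CPM, below all saline libraries (adjusted p of the age difference 0.00117), a comparison that shares the saline libraries.

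Ddit4l was then read in the other clusters with at least 10 cells in a library, as a description chosen after its values in Exc_5 were seen. In none of the 25 other clusters did all cocaine libraries lie below all saline libraries, although in many of them the gene was near 0. In Exc_2 the means were 138 ± 28.0 CPM in saline and 96.8 ± 17.2 CPM in cocaine libraries, and in Exc_9 190 ± 44.8 and 122 ± 38.2 CPM. In Exc_3 they were 56.5 ± 11.4 and 48.0 ± 34.2 CPM, and in Exc_10, where the gene was highest, 299 ± 75.6 and 261 ± 47.6 CPM. In Exc_1 they were 172 ± 26.8 and 159 ± 52.2 CPM. The cocaine mean was the higher in Exc_8 (128 ± 33.4 in saline and 140 ± 44.7 CPM in cocaine libraries) and Exc_11 (179 ± 54.7 and 202 ± 43.4 CPM). A difference between Exc_5 and these clusters was not tested. The other genes called over the 3 time points were Smoc2 (55.0 ± 7.55 in saline and 95.6 ± 32.2 CPM in cocaine libraries) and Rasl10a (152 ± 53.8 and 246 ± 84.1 CPM), which rose, and BC048546 (26.9 ± 10.4 and 8.05 ± 4.83 CPM), which fell, each with overlapping groups. DESeq2 called 0 genes over the 3 time points, with 108 at an unadjusted p below 0.05.

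**Figure D4:**
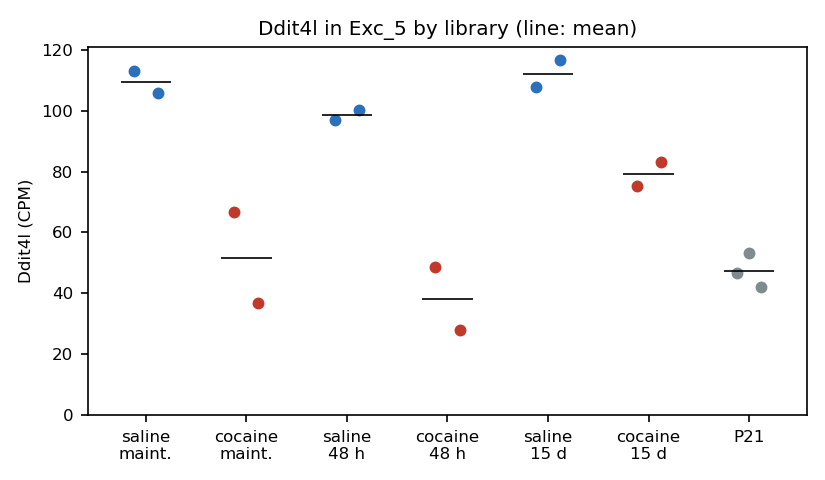
Level of Ddit4l in CPM in Exc_5 in each library, by group, with the mean as a line. The 6 saline libraries (blue) lie between 96.8 and 117 CPM, the 6 cocaine libraries (red) between 27.9 and 83.2 CPM, and the 3 P21 libraries (grey) between 42.2 and 53.1 CPM.

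At 15 days of withdrawal 80 genes were called (1.15%), all higher in cocaine_15d, and this result rested on a single saline library. Without saline_15d replicate 1 (library 11) 0 genes were called, without saline_15d replicate 2 (library 12) 137 were, and DESeq2 called 8. For 75 of the 80 genes both cocaine_15d libraries lay above the 10 other P60 libraries, which held for 323 (4.64%) of all genes tested. The 5 largest were Yjefn3, Ccdc85b, H2afx, 2310036O22Rik and 2310047M10Rik. 2310036O22Rik was at 162 and 165 CPM in cocaine_15d and at 20.02 and 72.5 CPM in saline_15d (2.11 ± 0.29, adjusted p from edgeR 1.16e-06). Junb was at 109 and 175 CPM against 24.5 and 54.4 CPM (2.00 ± 0.29, adjusted p = 1.8e-06), and Calb1 at 463 and 502 CPM against 245 and 334 CPM (0.78 ± 0.18, adjusted p = 0.00475).

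The 80 genes, chosen for being higher in the cocaine_15d libraries of Exc_5, had a median difference above 0 between the same libraries in every cell type examined. Relative to the maintenance and 48 h libraries, their median log2 level in Exc_5 was 1.18 and 1.08 in the cocaine_15d libraries and -0.23 and 0.44 in the saline_15d libraries 11 and 12. In the P21 libraries it was 1.43, 0.84 and 0.64, highest in P21 library 1. Their median difference between cocaine_15d and saline_15d was 1.03 in Exc_5, 0.91 in all other excitatory clusters (80 of 80 genes above 0), 0.92 in inhibitory neurons, 0.90 in endothelial cells, 0.91 in astrocytes, 0.85 in microglia, 0.95 in oligodendrocytes and 0.71 in their precursors. The number of genes above 0 was 71 in microglia, 74 in the precursors and 77 to 79 in the other non-excitatory cell types. The pair of saline_15d libraries, which share a treatment, differed by a median of 0.62 in Exc_5 and 0.71 in the other excitatory clusters. In both, 80 of 80 genes were above 0. The number was 79 in inhibitory neurons, 70 in endothelial cells and astrocytes, 69 in oligodendrocytes, 65 in microglia and 58 in the precursors. Over all 6961 genes tested, the median difference in these cells was -0.06 to 0.01 between treatments. Between the saline_15d libraries it was -0.14 to -0.01. The 80 genes had a median GC content of 55.0%, against 49.9% for all genes tested, and a median transcript length of 1551 bases, against 3023.5. Endothelial markers summed to 855 to 902 CPM in cocaine_15d and 513 to 657 CPM in saline_15d. Most of that sum was Bsg, at means of 840 and 550 CPM, which is itself among the 80 genes. Which of these accompanied the treatment and which the libraries was not tested, and with 2 libraries a group the 2 cannot be told apart.

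**Figure D5:**
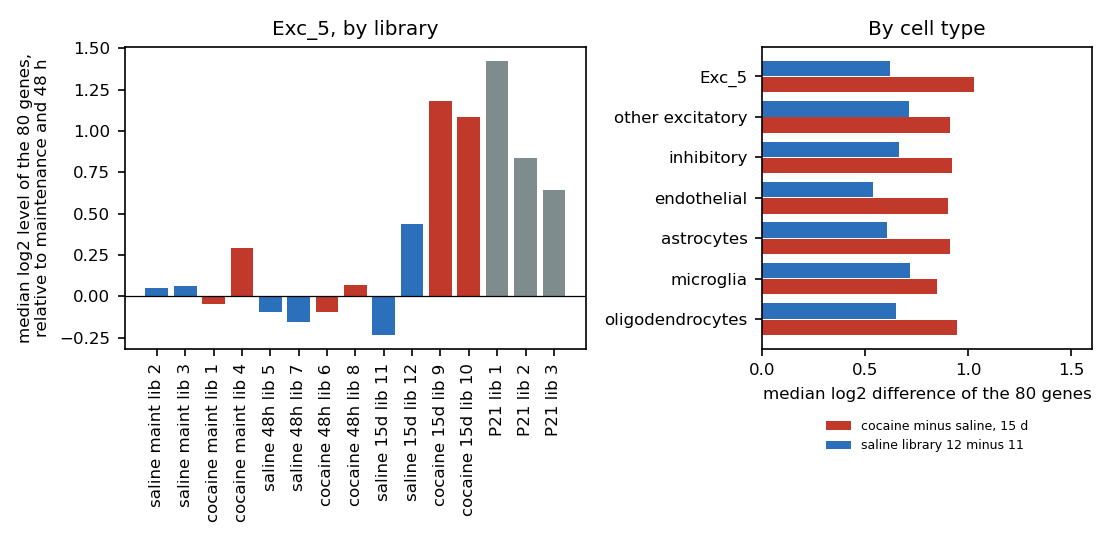
Left, median log2 level of the 80 genes called at 15 days in each Exc_5 library (lib), relative to the mean of the maintenance and 48 h libraries, with cocaine in red, saline in blue and P21 in grey. Right, median log2 difference of the same genes in 7 kinds of cells between cocaine_15d and saline_15d (red, 0.85 to 1.03) and between saline_15d libraries 12 and 11 (blue, 0.54 to 0.72).

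The share of Exc_5 among excitatory cells was not distinguished between cocaine and saline. It averaged 5.45%, 5.45% and 2.26% in the cocaine groups and 6.43%, 5.00% and 3.02% in the saline groups at maintenance, 48 h and 15 days. The mean difference within time points was -0.43 percentage points (two-sided exact permutation test within time points, p = 0.62 over 216 regroupings, smallest possible 0.00926).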

How the data were processed

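Single-cell RNA sequencing of the PFC was carried out by the authors on the 10X Chromium platform. The deposited values are raw UMI counts per gene and cell barcode, not normalised, made by aligning to mm9 (NCBIM37, Ensembl genes) with Cell Ranger, which the submitters' processing notes also name. The cell table deposited by the authors gives each retained cell's library, class, cluster (Seurat 2.1.0) and mitochondrial fraction of UMIs between 0 and 1. Likely double droplets (cells with an unusually high number of genes) and cells with a high mitochondrial share had been removed by the authors, so no doublet caller was run and no further cell was removed here. The joined table of counts was not used.

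UMIs of Exc_5 cells were summed per library. The 13 mitochondrial and 143 ribosomal protein genes and pseudogenes were left out, and 25989 of 26145 listed genes remained. The sums were tested with edgeR 4.0.16 in R 4.3.3 (low-count filter, TMM, robust quasi-likelihood F test, Benjamini-Hochberg over all genes tested, calls at 0.05 and 1.5-fold). SEs were derived from the F statistic. Interactions had library as a block. Shares were tested by exact permutation over libraries. The tests were checked on simulated counts. Python 3.11.15, pandas 2.3.3 and scipy 1.17.1 were used for the rest. Positions come from the annotation of NCBIM37.

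Named genes were Cux2 and Calb1; the 12 highest and 8 lowest in ratio to the median of the other clusters (at least 50 CPM in Exc_5 or in that median); for age the 10 largest rises and falls, and for each cocaine comparison and interaction the 5, among called genes with no overlap between groups; and called list members. The cluster, gene lists and comparisons were chosen with earlier results of these data known. The symbols Sox4, Scn8a, Efna5 and Hmgcs1 occur on more than 1 row and were left out of lists, and Map1a is listed as Mtap1a. Alternatives were DESeq2 1.42.0, its size factors, no low-count filter, Bonferroni, no fold threshold, other sets of libraries, equal cells per library (20), thinning to 2000 UMIs, at least 30 cells, and leaving out each library. Added after the data were examined were cells of the excitatory class only and a GC offset. The list of sodium and calcium channel genes is not reported here.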

Additional observations from a re-analysis of the deposited data

Results flagged for a closer look

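Of 46 sets of 6 libraries examined for a value far from the rest, which chance gives in about 1 of 20, a pair stood out. Myh14 was at 49.6 CPM in saline library 5, below the other saline libraries, and 2310036O22Rik at 72.5 CPM in saline library 12, above the others.

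The change from P21 to P60 differed between Exc_5 and Exc_3 for 3 genes, among them Penk (adjusted p = 0.00173) and Acat2 (adjusted p = 0.0282). It differed between Exc_5 and the other excitatory clusters for 93 genes. Of those with a more positive change in Exc_5, Cplx3 (adjusted p = 9.41e-05; 0 UMIs at P21 and 18 in saline P60 libraries), Ugt8a (adjusted p = 0.00716; 0 and 11), Ptgs1 (adjusted p = 0.00588; 0 and 79), Col12a1 (adjusted p = 0.0321; 0 and 10) and Flt1 (adjusted p = 0.014; 1 and 14) rest on few Exc_5 UMIs. Of those with a more negative change, Cd24a had an adjusted p of 2.82e-07, Marcksl1 of 2.5e-13, Npas4 of 1.33e-05, Zfhx4 of 0.0127 and Echdc2 of 0.0094. Without P21 library 1 the calls of Ugt8a, Ptgs1, Col12a1 and Flt1 were lost, and those of Col12a1 and Flt1 also without P21 library 2 or 3.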

How the results depend on the processing

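For age, the count of 430 calls became 74 with Bonferroni adjustment, 71 against the 15-day saline libraries only, 249 with equal numbers of cells, 71 at 2000 UMIs per cell, and 314 to 508 on leaving out a library. At maintenance leaving out a library gave 0 to 2 calls, and at 48 h 0 to 0. At 15 days, the 80 calls became 20 with Bonferroni, 8 with DESeq2, 26 with equal numbers of cells, 14 at 2000 UMIs, 52 in a fit of the 4 libraries alone, and 0 to 137 on leaving out a library. Over the 3 time points the 4 calls became 2 with Bonferroni, 0 with DESeq2, 7 without the low-count filter, 0 at 2000 UMIs, and 1 to 22 on leaving out a library. The 3 interactions with Exc_3 became 28 against Exc_4 and 1 to 4 on leaving out a library, and the 93 with all other clusters 41 to 157. The age difference in share was 3.16 points (exact permutation p = 0.0714) with P21 libraries 2 and 3 summed and 2.88 to 3.70 on leaving out a library, where p was above 0.05 in 5 of 9 cases. That in share with cocaine was -0.95 to 0.09 points, reversed without cocaine_maint replicate 2 (0.0933) or cocaine_48h replicate 2 (0.0402). Tuba1a reversed in libraries of at least 30 cells (0.053, log2) and the Tshz2 interaction without P21 library 1 (0.024; lowest value -3.162). For named genes, 6678 of 6982 alternative values kept direction and side of the threshold, and the cause of the other changes was not tested. No paired analysis was possible because replicate numbers were given in accession order and pair no libraries.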
